A study of Mus musculus with 8 samples.

Results

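Arginine and tryptophan catabolism was followed through 10 genes, Slc7a2, Arg1, Arg2, Odc1, Nos2, Ass1, Ido1, Il4i1, Kmo and Kynu, chosen as the rows whose gene symbol equals one of these names. All 10 were found among the 21051 protein-coding genes listed for tumor-associated macrophages (TAMs), and 8 of them had enough reads to be tested. TAMs were CD45+F4/80+ cells sorted from subcutaneous B16 melanomas (a pigmented mouse melanoma line) of young adult male C57BL/6 mice on day 14 after inoculation. The TAM-WT group held 4 libraries from wild-type littermates, and the TAM-KO group held 4 libraries from Colec11-/- mice, which lack the collectin CL-11 in every tissue of the host, while the tumor cells keep their own Colec11 gene. The comparison asks how loss of CL-11 in the host altered these genes in TAMs. The deposited table of TAM-KO replicate 1 lists Kmo and Kynu only. Its values for Slc7a2, Arg1, Arg2, Ass1 and Ido1 were taken from the table of the whole series, which holds genes picked for differing between the groups, and Odc1, Nos2 and Il4i1 have 3 TAM-KO libraries.

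Arginine and tryptophan are amino acids that myeloid cells can remove from a tumor, and T cells depend on both. CAT2, the cationic amino acid transporter encoded by Slc7a2, brings arginine into the macrophage. Arginase splits arginine into urea and ornithine, the substrate from which ornithine decarboxylase makes polyamines, whereas inducible nitric oxide synthase turns the same arginine into nitric oxide and citrulline, and argininosuccinate synthase starts the return of citrulline to arginine. Tryptophan is opened by indoleamine 2,3-dioxygenase into the kynurenine pathway, of which Kmo and Kynu encode later enzymes, and it can also be oxidized by the secreted enzyme Il4i1. In macrophages, interferon gamma is known to induce Nos2 and Ido1, and interleukin 4 is known to induce Arg1.

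The promoter of Ass1 is shown because Ass1 was the only one of the 10 genes to pass the test below, and that of Odc1 because it had the next smallest p. The RefSeq promoter table of GRCm38.p6 held 4 of the 10 genes (Ass1, Odc1, Kmo and Il4i1). The bases below run 5′ to 3′ on the plus strand and stop just before the first annotated base of the gene, at chr2:31470020-31470269 for Ass1 and at chr12:17544623-17544807 for Odc1. Capitals mark a match to the E-box CACGTG.
Ass1: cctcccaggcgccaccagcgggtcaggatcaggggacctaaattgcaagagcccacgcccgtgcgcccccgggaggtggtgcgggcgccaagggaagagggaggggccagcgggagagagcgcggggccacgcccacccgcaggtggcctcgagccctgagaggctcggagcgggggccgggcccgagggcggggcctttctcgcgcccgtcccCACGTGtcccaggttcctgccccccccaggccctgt
Odc1: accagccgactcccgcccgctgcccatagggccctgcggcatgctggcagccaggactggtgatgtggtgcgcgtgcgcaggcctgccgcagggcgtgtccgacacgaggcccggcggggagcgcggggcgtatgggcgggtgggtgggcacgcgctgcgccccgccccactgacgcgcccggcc

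Both stretches were rich in G and C, at 75.6% for Ass1 and 77.8% for Odc1. The 300-base windows that hold them were at 74% and 78%, beside a median of 52.7% over the windows of all 32851 promoters of the table. The E-box of Ass1 begins 36 bases before the start, and it also holds the hypoxia response core ACGTG once on each strand. CACGTG occurs in 7.15% of all promoters and ACGTG in 19.6%. On either strand of the 300-base windows of the 4 genes there was no match to the GAS element TTCNNNGAA, the ISRE core GAAANNGAA, the kappa B core GGANNNTCC or the TATA box TATAAA, which occur in 8.3%, 8.56%, 8.62% and 13.6% of promoters. These matches describe letters in a short window and say nothing of which factors bind there.

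Reads on genes numbered from 16225362 to 17280267 in the 7 complete libraries, and from 10061535 to 10607640 in all 8 over the genes that every table holds. Expected counts (reads per gene as estimated by RSEM) were compared by edgeR's quasi-likelihood test, with p adjusted by the Benjamini-Hochberg method over the 12412 genes tested, and a gene passed at an adjusted p of at most 0.05. Of these genes, 1231 passed (9.92%), 575 of them higher (4.63%) and 656 lower (5.29%) in TAM-KO. With libraries scaled to total reads instead of by TMM, log2 fold changes of genes without TAM-KO replicate 1 moved up by a median of 0.11, and 64.4% rather than 46.7% of passing genes were higher in TAM-KO. Colec11 itself had at most 4 counts in any library of either group, so these cells do not check the genotype. All 8 macrophage markers were present, with a summed level of 6994 to 8732 FPKM in TAM-WT and 7858 to 8499 FPKM in TAM-KO replicates 2 to 4. Of the 8, 0 passed in edgeR and 3 in DESeq2, and 4 log2 fold changes were positive and 4 negative. At an unadjusted p under 0.05 were 3 of them, beside 30.7% of all genes. Cd68 and Mertk were lower in TAM-KO, at log2 fold changes of -0.55 and -0.35, and Fcgr1 was higher, at 0.49 (edgeR adjusted p = 0.0732, 0.0557 and 0.0962).

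Among the 10 genes, only Ass1 passed the test, and it was higher in TAM-KO. The arginase genes, the transporter gene Slc7a2, Il4i1 and Odc1 had lower mean FPKM in TAM-KO, and Nos2, Kmo and Kynu had higher means, but none of these passed. Thus 1 of 8 tested genes passed, beside the 9.92% of all genes, and 2 of 8, Ass1 and Odc1, had an unadjusted p under 0.05, beside 30.7% of all genes. The median log2 fold change of the 8 was -0.48, against 0.0016 over all genes. FPKM ranges of the groups did not overlap for Ass1, which is 1 of the 7 tested without the table of TAM-KO replicate 1, beside 26.5% of all such genes. The ranges of Kmo, tested on 4 and 4 libraries, did overlap, beside 17.1% of such genes that did not.

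**Figure D1:**
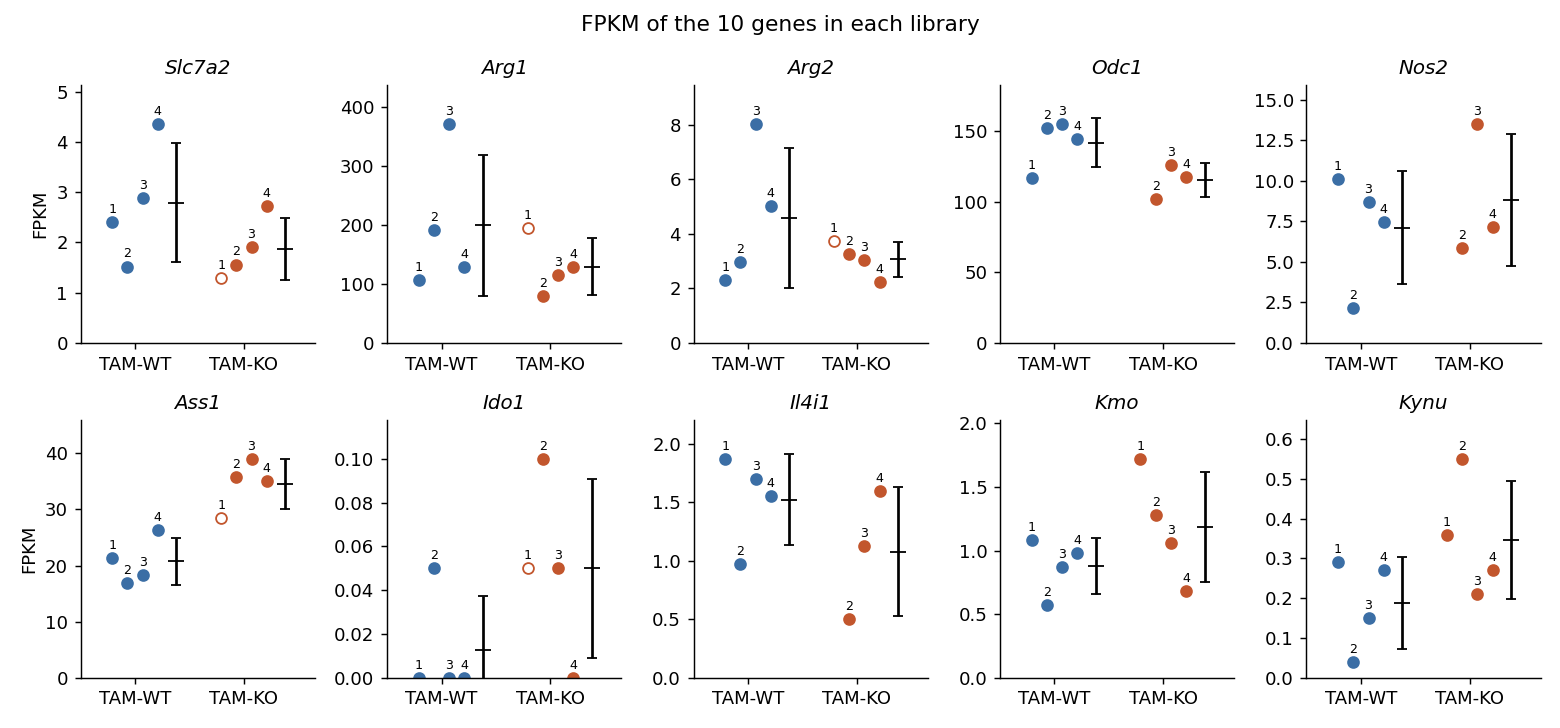
FPKM of each of the 10 genes (y axis, linear from 0, with a scale of its own in each panel) in TAM-WT (blue) and TAM-KO (orange) libraries, numbered by replicate. Open circles are values of TAM-KO replicate 1 from the table of the whole series, which holds genes picked for differing between the groups. Black bars are the mean and SD. Ass1 is the only gene whose TAM-KO values, from 28.4 to 39.0 FPKM, all lie above those of TAM-WT, from 17.0 to 26.4 FPKM.

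Per length of transcript, Arg1 and Odc1 were far more abundant than the other 8 genes. In TAM-WT the mean fell from 199 FPKM for Arg1 and 142 FPKM for Odc1 to 20.7 for Ass1, 7.11 for Nos2, 4.57 for Arg2, 2.79 for Slc7a2, 1.52 for Il4i1, 0.875 for Kmo, 0.188 for Kynu and 0.0125 for Ido1. The ranges of the 4 libraries separated Odc1 from Ass1, Ass1 from Nos2 and Kmo from Kynu, and overlapped for every other pair of neighbours in this order. TAM-KO had the same order apart from Kmo, at 1.19 FPKM, and Il4i1, at 1.08 FPKM, whose ranges overlapped in both groups.

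Slc7a2 (NCBI gene 11988, chr8:40862341-40922070 in GRCm38.p6 RefSeq, as are all positions here) encodes the transporter that supplies arginine to both arginase and nitric oxide synthase. From replicate 1 to replicate 4, its FPKM was 2.40, 1.52, 2.88 and 4.35 in TAM-WT and 1.3, 1.56, 1.90 and 2.72 in TAM-KO. TAM-WT replicate 4 was the highest and TAM-KO replicate 1 the lowest, and the groups overlapped. On TAM-KO replicates 2 to 4, its log2 fold change was -0.55 ± 0.37 (SE, 95% interval -1.39 to 0.29, edgeR adjusted p = 0.344), and without TAM-WT replicate 4 it was -0.24.

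Arg1 (NCBI gene 11846, chr10:24915207-24927470), the cytosolic arginase widely used as a marker of alternatively activated macrophages, was the most abundant of the 10 genes. TAM-WT replicates 1 to 4 had 107, 191, 370.2 and 129 FPKM, on 2198 to 7645 counts. TAM-KO replicates 1 to 4 had 194, 78.9, 115 and 128 FPKM. The means were 199 ± 119 and 129 ± 48.0 FPKM (SD, 4 libraries a group), and the difference lay within the spread of the libraries. TAM-WT replicate 3 stood highest, TAM-KO replicate 1 stood above 3 of the 4 TAM-WT libraries, and TAM-WT replicate 1 stood below 3 of the 4 TAM-KO libraries. On TAM-KO replicates 2 to 4, the log2 fold change was -1.01 ± 0.45 (SE, 95% interval -2.04 to 0.01, edgeR adjusted p = 0.167). It was -0.47 without TAM-WT replicate 3 and -0.76 with TAM-KO replicate 1 taken from the table of the whole series. Since these are bulk samples, fewer cells that express a gene and less of its RNA per cell cannot be told apart.

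Arg2 (NCBI gene 11847, chr12:79130788-79156301), the mitochondrial arginase, was present at a much lower level. In replicate order, its FPKM was 2.30, 2.96, 8.01 and 5.01 in TAM-WT, against 3.74, 3.27, 3.02 and 2.22 in TAM-KO. As for Arg1, TAM-WT replicate 3 was the highest and TAM-WT replicate 1 the lowest of the TAM-WT group, and TAM-KO replicate 1 the highest of TAM-KO, and the groups overlapped. With TAM-KO replicates 2 to 4 in the test, the log2 fold change was -0.81 ± 0.45 (SE, 95% interval -1.85 to 0.22, edgeR adjusted p = 0.258), and it was -0.36 without TAM-WT replicate 3. The ratio of Arg1 to Arg2 FPKM ran from 25.8 to 64.5 in TAM-WT and from 24.1 to 57.6 in TAM-KO. The Arg2 locus overlaps Vti1b on the other strand, and its TAM-WT counts were not whole numbers, as RSEM gives where reads are split between transcripts of different genes.

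Odc1 (NCBI gene 18263, chr12:17544808-17551502), whose promoter is printed above, encodes the enzyme that commits ornithine to polyamine synthesis. In TAM-WT replicates 1 to 4 it was at 116, 152, 155 and 144 FPKM. The TAM-KO replicates 2 to 4 were at 102, 126 and 118 FPKM, with no value for replicate 1. Only TAM-WT replicate 1 lay within the range of TAM-KO, and the other 3 TAM-WT libraries lay above it. The log2 fold change was -0.41 ± 0.14 (SE, 95% interval -0.73 to -0.09), and the adjusted p was 0.0947 in edgeR and 0.0478 in DESeq2. Without TAM-WT replicate 1 it passed in edgeR as well, at a log2 fold change of -0.50 (adjusted p = 0.0383), while without TAM-KO replicate 2 the adjusted p was 0.295. With libraries scaled to total reads the log2 fold change was -0.29. Odc1 lies on the same chromosome as the deleted Colec11 gene, 11 Mb from it, and Arg2 lies 50.5 Mb away on its other side.

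Nos2 (NCBI gene 18126, chr11:78920787-78960226) encodes inducible nitric oxide synthase, a marker of classically activated macrophages. It was at 10.1, 2.15, 8.68 and 7.46 FPKM in TAM-WT replicates 1 to 4, and at 5.88, 13.5 and 7.13 FPKM in TAM-KO replicates 2 to 4. TAM-KO replicate 3 was the highest and TAM-WT replicate 2 the lowest, the other 2 TAM-KO libraries lay below the other 3 TAM-WT libraries, and the groups overlapped. Its log2 fold change of 0.20 had a standard error of 0.48, and its 95% interval ran from -0.92 to 1.31 (edgeR adjusted p = 0.819). Its sign turned when either extreme library was left out, as it was -0.11 without TAM-WT replicate 2 and -0.23 without TAM-KO replicate 3.

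The balance of arginase to nitric oxide synthase can be read as the ratio of their FPKM in each library. Arg1 stood above Nos2 by 10.5, 88.7, 42.7 and 17.3 times in TAM-WT replicates 1 to 4, and by 13.4, 8.55 and 17.9 times in TAM-KO replicates 2 to 4. Per length, Arg1 RNA was thus the more abundant in every library with both values. The TAM-KO ratios lay at or near the low end of TAM-WT, where replicates 1 and 4 had ratios like theirs, and the groups overlapped. TAM-KO replicate 1, which had the highest Arg1 of its group at 194 FPKM, has no Nos2 value and so no ratio.

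Ass1 (NCBI gene 11898, chr2:31470270-31520670), whose enzyme joins citrulline to aspartate on the way back to arginine, rose in TAM-KO. The TAM-WT libraries were at 21.4, 17.0, 18.2 and 26.4 FPKM in replicates 1 to 4, on 401 to 625 counts. The TAM-KO libraries were at 28.4, 35.7, 39.0 and 35.0 FPKM in replicates 1 to 4, on 676 to 902 counts. The groups did not overlap, with TAM-KO replicate 1, which did not enter the test, nearest to TAM-WT replicate 4. Group means were 20.7 ± 4.20 and 34.6 ± 4.43 FPKM (SD, 4 libraries each). The log2 fold change on TAM-KO replicates 2 to 4 was 0.71 ± 0.15 (SE, 95% interval 0.36 to 1.06, edgeR adjusted p = 0.0313), which is 1.64-fold. That is below the 2-fold limit by which the study defined differentially expressed genes, while its heatmaps used a lower limit. With TAM-KO replicate 1 included from the table of the whole series, the log2 fold change was 0.63 (adjusted p = 0.0405). That table holds genes picked for differing between these groups, so its value for replicate 1 is no separate support. The adjusted p missed the threshold when TAM-WT replicate 3 (0.0922), or TAM-KO replicate 2 (0.097), 3 (0.109) or 4 (0.0529), was left out, although the log2 fold change stayed between 0.61 and 0.87 in the 7 fits that left out a library used in its test.

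**Figure D2:**
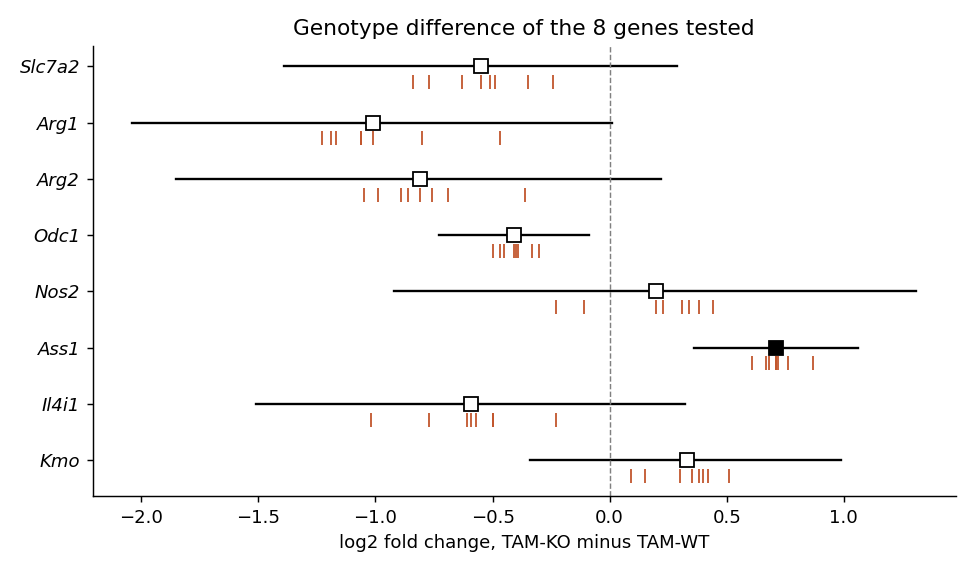
Log2 fold change of TAM-KO against TAM-WT (x axis) for the 8 genes tested, with 95% intervals as lines and a filled square for the gene that passed. The ticks under each line are the values with each library left out in turn. Those of Ass1 lie between 0.61 and 0.87, whereas those of Nos2 fall on both sides of 0, from -0.23 to 0.44.

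Markers of several other cell types also differed between these libraries. Over the 12412 genes tested, 9.92% passed in edgeR, 30.7% had an unadjusted p under 0.05, and 2257 passed in DESeq2. Of 5 monocyte markers, 3 passed and were higher in TAM-KO, among them Ly6c2 and Plac8. The other 2 had negative log2 fold changes and did not pass. The 5 summed to 76.8 to 177 FPKM in TAM-WT and 240.3 to 368 FPKM in TAM-KO replicates 2 to 4. These sums did not overlap. The 6 melanoma markers summed to 1918 to 4308 FPKM in TAM-WT and 3727 to 4958 FPKM in TAM-KO replicates 2 to 4. All 6 had positive log2 fold changes, with a median of 0.57, and 0 passed in edgeR, beside 5 at an unadjusted p under 0.05 and 4 that passed in DESeq2. TAM-WT replicate 2 had the most melanoma RNA of its group, at 4308 FPKM and within the TAM-KO range, and it had the lowest Ass1 of all libraries.

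T cell markers summed to 1.89 to 12.9 FPKM in TAM-WT and 12.7 to 33.6 FPKM in TAM-KO replicates 2 to 4. Of the 5, 0 passed in edgeR, 4 had an unadjusted p under 0.05 and 1 passed in DESeq2. For all genes, here and for the lists below, these were 9.92%, 30.7% and 2257 of 12412. The NK cell markers ranged in sum from 0.77 to 12.6 FPKM and from 10.5 to 39.9 FPKM, and 0 of the 3 tested passed in edgeR or DESeq2, beside 3 at an unadjusted p under 0.05. TAM-WT replicate 1 and TAM-KO replicate 4 had nearly the same T cell level, at 12.9 and 12.7 FPKM, and Ass1 was at 21.4 and 35.0 FPKM in them. Their monocyte markers summed to 177 and 240.3 FPKM. Of 8 neutrophil markers, 4 were tested, and all 4 had an unadjusted p under 0.05 and passed in DESeq2. In edgeR 1 of them passed, S100a8, which was higher in TAM-KO, at 73.5 FPKM in replicate 1 and 9.13 to 15.8 FPKM in replicates 2 to 4, with log2 fold changes of 2.68 with replicate 1 and 1.52 without it (edgeR adjusted p = 0.0481 and 0.0444). Mmp8 had a log2 fold change of -1.22 on TAM-KO replicates 2 to 4 (edgeR adjusted p = 0.0603). Ngp was at 0 in all 7 libraries that list it, and the summed levels overlapped between the groups, as did those of dendritic cells, B cells, fibroblasts and endothelial cells. Of 6 conventional and 5 migratory dendritic cell markers tested, Xcr1 passed as higher and Il12b as lower, beside 4.63% and 5.29% of all genes. Xcr1 was near the floor, on 4 to 24 counts in TAM-WT and at most 0.92 FPKM in any library. The median log2 fold change was 0.02 for the conventional markers, 4 of them positive and 2 negative. For the migratory markers it was -0.36, with 2 positive and 3 negative. Of the 9 tested markers of B cells, fibroblasts and endothelial cells, 0 passed in edgeR, beside 2 at an unadjusted p under 0.05 and 1 that passed in DESeq2. The part of these cells in the level of Ass1 or of the other genes was not tested.

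**Figure D3:**
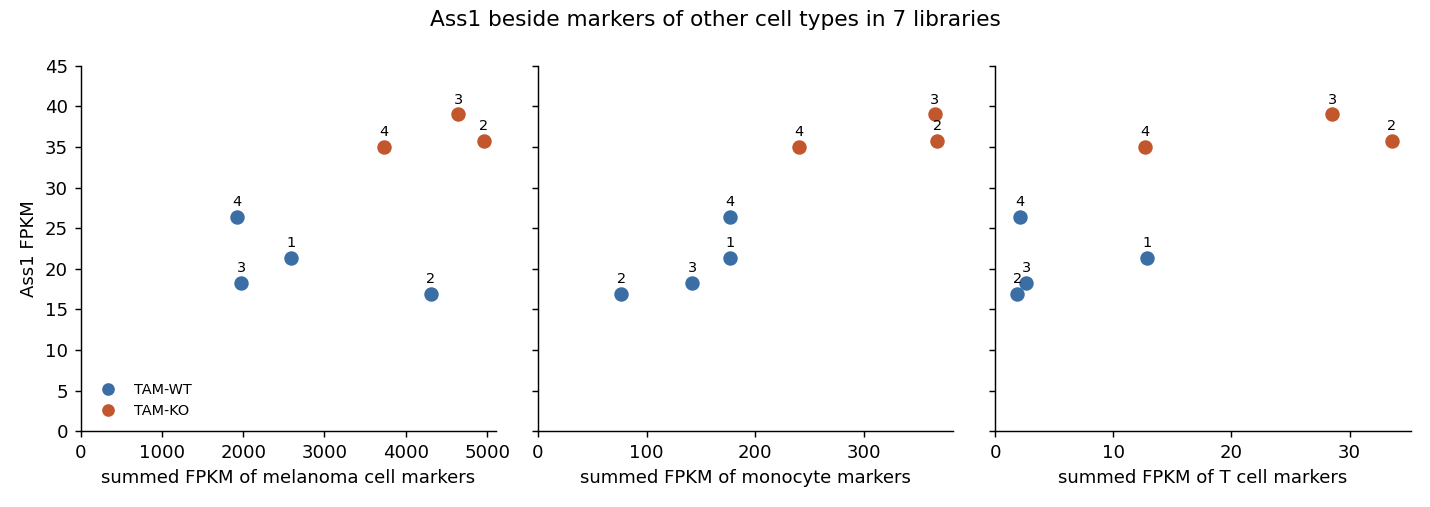
FPKM of Ass1 (y axis) against the summed FPKM of melanoma, monocyte and T cell markers (x axes, linear from 0) in the 7 complete libraries, numbered by replicate, with TAM-WT in blue and TAM-KO in orange. TAM-WT replicate 2 lies low on the y axis, at 17.0 FPKM, with a melanoma level of 4308 FPKM. Its monocyte and T cell levels, at 76.8 and 1.89 FPKM, are the lowest of the 7 libraries. Summed monocyte levels separate the groups as Ass1 does, though 2 of the 5 markers had negative log2 fold changes.

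Ido1 (NCBI gene 15930, chr8:24584133-24596952), the entry to the kynurenine pathway, was close to absent from these libraries. It counted 0, 1, 0 and 0 reads in the TAM-WT libraries and 1, 2, 1 and 0 in the TAM-KO libraries, in replicate order, at most 0.1 FPKM. Every value lies below the 3 counts that a count of 0 allows, so the gene did not enter the main test, no fold is given, and a difference was not detectable at this depth.

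Il4i1 (NCBI gene 14204, chr7:44836288-44840809), the amino acid oxidase, was at 1.87, 0.97, 1.70 and 1.55 FPKM in TAM-WT replicates 1 to 4 and at 0.50, 1.13 and 1.60 FPKM in TAM-KO replicates 2 to 4. The lowest value was that of TAM-KO replicate 2 and the groups overlapped. Its log2 fold change was -0.59 ± 0.40 (SE, 95% interval -1.51 to 0.32, edgeR adjusted p = 0.352). Without TAM-KO replicate 2 it was -0.23, and without TAM-KO replicate 4 it was -1.02. In GENCODE the Il4i1 locus is longer than in RefSeq and shares 14426 bases with Nup62 on the same strand, and its counts were mostly not whole numbers, so its level is uncertain.

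Kmo (NCBI gene 98256, chr1:175632193-175660853) encodes the kynurenine 3-monooxygenase and was the only one of the 10 genes to be tested on 4 and 4 libraries. It was at 1.08, 0.57, 0.87 and 0.98 FPKM in TAM-WT replicates 1 to 4 and at 1.72, 1.28, 1.06 and 0.68 FPKM in TAM-KO replicates 1 to 4. TAM-KO replicates 1 and 2 lay above TAM-WT, and TAM-KO replicates 3 and 4 lay within it. The log2 fold change was 0.33 ± 0.30 (SE, 95% interval -0.34 to 0.99, edgeR adjusted p = 0.491), on 22 to 67 counts, and it was 0.09 without TAM-KO replicate 1. Its locus overlaps Fh1 on the other strand.

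Kynu (NCBI gene 70789, chr2:43555258-43683048), the kynureninase gene, counted 10, 2, 5 and 7 reads in the TAM-WT libraries and 12, 17, 6 and 8 in the TAM-KO libraries, in replicate order, which is too few for the test. TAM-KO replicates 1 and 2 were the highest and the groups overlapped, at 0.04 to 0.29 and 0.21 to 0.55 FPKM. Without the filter on low counts its log2 fold change was 0.74 ± 0.49 (SE, edgeR adjusted p = 0.388).

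The other genes of both pathways were read from the same fit. Of 36 further arginine pathway genes, 28 were tested, and 3 passed, beside 9.92% of all genes. All 3 were lower in TAM-KO, and 9 of the 28 had an unadjusted p under 0.05, beside 30.7% of all genes. Their median log2 fold change was -0.11. The 3 genes, Sat1, Paox and Azin1, all belong to the polyamine genes of the list, of which 10 of 11 were tested and 9 of these 10 had negative log2 fold changes, beside 49.7% of all genes, with a median of -0.25. With libraries scaled to total reads, 8 of the 10 were negative, beside 34.2% of all genes, and the median was -0.16. This grouping by role was made after the values were seen.

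Sat1, which acetylates spermidine and spermine for breakdown or export, was at 237, 199.5, 314 and 269 FPKM in TAM-WT replicates 1 to 4 and at 181, 161, 165 and 159.5 FPKM in TAM-KO replicates 1 to 4. The groups did not overlap, as for 17.1% of all genes tested on 4 and 4 libraries, and TAM-KO was the tighter of them. Its log2 fold change was -0.77 ± 0.16 (SE, edgeR adjusted p = 0.0255), and it missed the threshold when TAM-WT replicate 3 (0.0522) or 4 (0.0569), or TAM-KO replicate 2 (0.093) or 3 (0.0864), was left out. Paox, the oxidase that acts on the acetylated polyamines, was at 30.9, 28.7, 25.5 and 26.6 FPKM in TAM-WT and 23.3, 20.8, 22.7 and 22.0 FPKM in TAM-KO, again without overlap. Its log2 fold change was -0.43 ± 0.06 (SE, edgeR adjusted p = 0.0123), and it passed whichever library was left out, in 8 of 8 fits, and in the 8 other alternatives.

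Azin1, which protects ornithine decarboxylase from its antizyme, averaged 59.2 ± 9.25 FPKM in TAM-WT and fell to 44.1 ± 5.03 FPKM (SD, 4 libraries a group), a log2 difference of -0.55 ± 0.15 (SE, edgeR adjusted p = 0.0463). The groups overlapped and the call was lost without TAM-WT replicate 3 or 4 or any 1 of the 4 TAM-KO libraries, with an adjusted p of at most 0.145, and in 4 of the 8 other alternatives. Oaz1, the antizyme that directs ornithine decarboxylase to breakdown, was the most abundant gene of the pathway, averaging 477 ± 23.6 FPKM over 4 TAM-WT libraries and 467 ± 14.3 FPKM over 3 TAM-KO libraries (SD, edgeR adjusted p = 0.255). Slc3a2, the heavy chain shared by several amino acid transporters, averaged 225 ± 19.6 and 192 ± 21.1 FPKM over the same libraries (SD, edgeR adjusted p = 0.133).

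**Figure D4:**
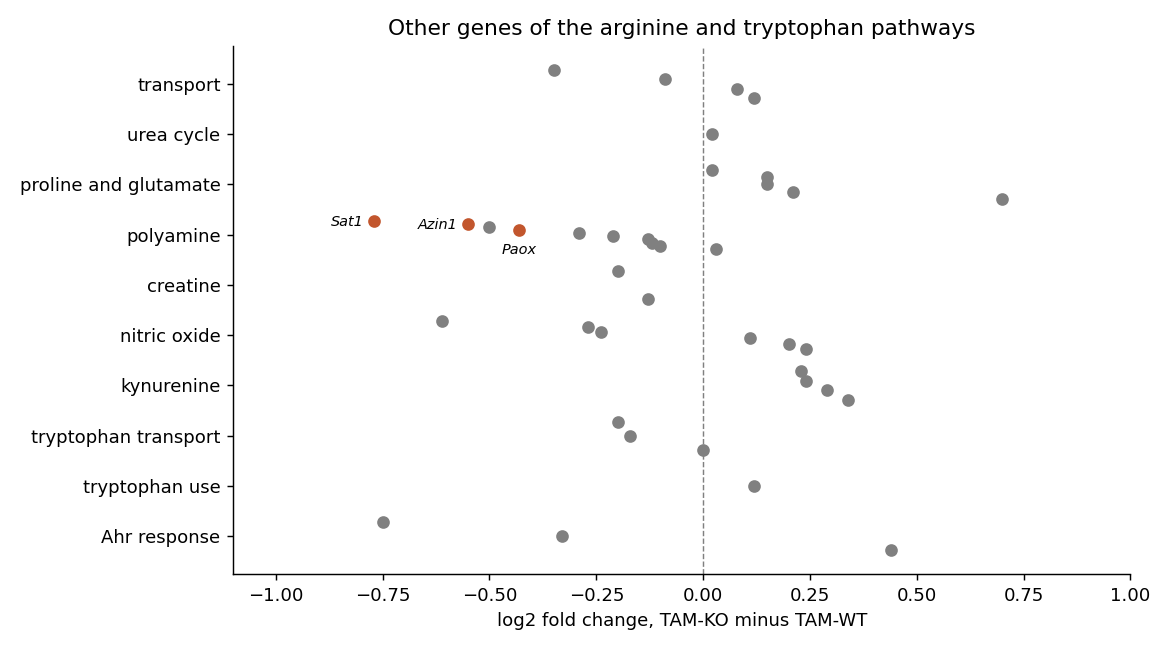
Log2 fold change of TAM-KO against TAM-WT (x axis) for the 28 other arginine pathway genes and 11 other tryptophan pathway genes tested, one point per gene, by role (rows). Orange points passed and are named. All 3 are in the polyamine row, where 9 of 10 points lie below 0, as 8 of 10 do with libraries scaled to total reads. Of all genes, 9.92% passed, and 49.7% lay below 0, or 34.2% with that scaling. The rows were formed after the values were seen.

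Of 18 further tryptophan pathway genes, 11 were tested and 0 passed in edgeR, beside 9.92% of all genes. Of these 11, 3 had an unadjusted p under 0.05, beside 30.7% of all genes, and 1, Tiparp, passed in DESeq2. The median log2 fold change was 0.12. Slc7a8, a neutral amino acid transporter, was the most abundant, at 132 ± 11.2 FPKM in TAM-WT and 128 ± 11.5 FPKM in TAM-KO (SD, n = 4 each, edgeR adjusted p = 0.371). Tiparp, a target and repressor of the aryl hydrocarbon receptor, which binds kynurenine, was at 46.0 ± 11.9 and 29.9 ± 6.37 FPKM (SD, n = 4 each), a log2 difference of -0.75 (edgeR adjusted p = 0.0626). Wars, which charges the tryptophan tRNA, was at 34.7 ± 4.17 and 40.6 ± 2.30 FPKM (SD, n = 4 each, edgeR adjusted p = 0.271).

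Of 16 known inducers of these genes and their receptors, 14 were tested, and 2 passed as higher in TAM-KO, among them Irf1, while 1, Pparg, passed as lower, beside 4.63% and 5.29% of all genes. Of the 14, 6 had an unadjusted p under 0.05, beside 30.7% of all genes. Irf1, a transcription factor of the interferon response, was at 34.9 ± 8.43 FPKM in TAM-WT and 64.6 ± 11.6 FPKM in TAM-KO (SD, n = 4 each), with a log2 difference of 0.82 on TAM-KO replicates 2 to 4 (edgeR adjusted p = 0.0488). The groups did not overlap for Irf1, as for 26.5% of all genes tested on 4 and 3 libraries. Its value for TAM-KO replicate 1 came from the table of the whole series, which holds genes picked for differing. Nos2, which interferon gamma is known to induce, overlapped between the groups, and Ido1 stayed at 2 counts or fewer. Whether Irf1 bears on either gene was not tested. Among the 7 fits that left out a library of its test, Irf1 passed in 1, that without TAM-WT replicate 2.

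Pparg, a nuclear receptor active in alternatively activated macrophages, averaged 28.2 ± 3.35 FPKM in TAM-WT and fell to 19.9 ± 1.24 FPKM (SD, 4 libraries a group), a log2 difference of -0.60 (edgeR adjusted p = 0.0201). It missed the threshold when TAM-WT replicate 3 (0.0609), or TAM-KO replicate 2 (0.0804) or 3 (0.0588), was left out. Stat6 and Il4ra, through which interleukin 4 acts, differed by -0.01 and -0.17 on the log2 scale (edgeR adjusted p = 0.958 and 0.603, without TAM-KO replicate 1 for Il4ra). Il13 was listed at 0 in the 7 libraries that hold it.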

How the data were processed

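RNA of CD45+F4/80+ TAMs was sequenced on the BGISEQ-500 platform for 4 WT and 4 Colec11-/- mice. Groups and replicate numbers came from the deposited labels. The study names Bowtie2 and RSEM, and the submitters' processing notes list HISAT2 2.0.4, Bowtie2 2.2.5, RSEM 1.2.12 and GRCm38.p6. The expected counts deposited by the authors are RSEM estimates of reads per gene, may be fractional and are not normalized. FPKM values were deposited by the authors, scaled by RSEM to transcript length and mapped reads. TPM values deposited by the authors were not used. The authors' table of the whole series also holds fold changes, p-values and q-values of their own comparison, which were not used.

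The table of TAM-KO replicate 1 lacks an unbroken run of 5311 genes, and the table of the whole series, which lists 3996 genes, gives 1188 of the 4214 otherwise measured genes it lacks. Its FPKM equalled those of the sample tables within 0.006 for 27972 of 27972 values. The values taken from it for TAM-KO replicate 1 enter FPKM means, ranges, overlaps and ratios. They also enter the marker sums over all 8 libraries and 1 alternative, but not the test. Genes in all 8 tables (9396 tested) entered a fit of 8 libraries, and the remaining 3016 a fit of 7, with p adjusted over both.

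Rounded expected counts were compared by edgeR 4.0.16 under R 4.3.3 (TMM, filterByExpr, glmQLFit, glmQLFTest), a script tested on simulated data. The simulation gave every gene the same dispersion and held no changes under 2-fold, so it does not show how often smaller changes are missed. Alternatives used DESeq2 1.42.0, limma 3.58.1 on log2(FPKM + 1) and log2(FPKM + 0.1), DESeq2 size factors in edgeR, no filter on low counts, the replicate number as a block, each library left out, and values from the table of the whole series for TAM-KO replicate 1. Scaling to total reads was added after seeing the data. The genes and lists were chosen with earlier results of these data known. Named beside the 10 genes are pathway genes, inducers and markers that passed (apart from some that are not reported here), the 3 most abundant genes of each pathway list, and Colec11, and Stat6, Il4ra, Il13 and Mmp8 were named after their values were seen. The lists also covered B cells, fibroblasts and endothelial cells. Otc, Pycr3, Il4 and Trac were not analysed here. Positions and promoters are from RefSeq tables of GRCm38.p6, and overlaps from GENCODE.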

Additional observations from a re-analysis of the deposited data

Results flagged for a closer look

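In groups of 4 libraries, a highest or lowest value was singled out where its gap to the nearest other divided by the range of the group exceeded Dixon's 95% critical value, which chance gives in about 1 of 20 groups. Of 59 groups examined, 5 met this, where 2.95 would come by chance.

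Ido1 stood out in TAM-WT replicate 2, at 0.05 FPKM against 0 in the other 3 libraries, which rests on 1 count. Slc7a8 was low in TAM-WT replicate 2, at 116 FPKM against 136 to 140 FPKM in the other TAM-WT libraries. The neutrophil markers summed to 211 FPKM in TAM-KO replicate 1, against 59.8 to 72.5 FPKM in the other TAM-KO libraries. T cell markers summed to 10.01 FPKM in TAM-WT replicate 1 against 0.46 to 0.52 FPKM in the rest of its group, and NK cell markers to 12.3 FPKM there against 0.7 to 2.12 FPKM. These marker sums cover only genes with a value in all 8 libraries. For some of these genes, TAM-KO replicate 1 comes from the table of the whole series, which holds genes picked for differing. Without TAM-WT replicate 1, 2 of the 10 genes passed (Ass1 and Odc1). TAM-KO replicate 1 entered the test of Kmo alone among them.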

How the results depend on the processing

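Of 16 alternative fits, 8 left out 1 library. Ass1 passed in the 8 other alternatives, with log2 fold changes from 0.63 to 0.84 and adjusted p from 0.00111 to 0.0417, and in 3 of the 7 that left out a library used in its test. The 8 include the fit with TAM-KO replicate 1 from the table of the whole series, which holds genes picked for differing. Leaving out 1 library moved the genes passing among all 12412 from 1231 to between 77 and 2755, those among the 10 genes from 1 to between 0 and 2, those of the arginine pathway from 3 to between 1 and 5, and those of the tryptophan pathway from 0 to between 0 and 3. Counts were lowest among all genes without TAM-KO replicate 2 or 3 (77 each) and highest without TAM-WT replicate 2 (2755). It also gave Nos2 log2 fold changes between -0.23 and 0.44, with -0.11 without TAM-WT replicate 2. By DESeq2, 2257 genes passed, with 2 of the 10 genes (Ass1 and Odc1) and 1 tryptophan pathway gene. With the replicate number as a block, 1080 genes passed, 2 of the 10 genes (Ass1 and Odc1, adjusted p = 0.0368 for Odc1), 2 arginine pathway genes and 1 tryptophan pathway gene, while Azin1 (0.0695) and Irf1 (0.0709) did not. Libraries of the same number did not deviate together (r across genes of -0.325, 0.02, -0.234 and 0.261), and TAM-WT replicate 1 correlated best with TAM-KO replicate 2, at 0.376. The cause of these shifts was not tested. Ido1 and Kynu were tested only without the filter on low counts, and neither passed (edgeR adjusted p = 0.511 and 0.388). The log2 fold change of Kynu was 0.74 ± 0.49 (SE), and none is given for Ido1, which had at most 2 counts in any library. The 95% interval of Kmo, at 22 to 67 counts, was wider than a log2 unit, from -0.34 to 0.99. That of Arg1, at 1573 to 7645 counts, was wider still, from -2.04 to 0.01, so low counts alone do not set the width.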

Other observations

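Urea cycle genes beyond arginase were split between an expressed and a silent part. Asl, which completes the step begun by Ass1, averaged 25.0 ± 0.178 FPKM over 4 TAM-WT libraries and 27.1 ± 1.23 FPKM over 3 TAM-KO libraries (SD), with a log2 fold change of 0.02 (adjusted p = 0.89 from edgeR). Cps1, the first enzyme of the hepatic cycle, was listed at 0 in all 8 libraries. Of the kynurenine genes beside the 10, the 4 that could be tested (Afmid, Kyat1, Kyat3 and Haao) lay between 0.23 and 0.34 on the log2 scale, and 0 of them passed in edgeR, at an unadjusted p under 0.05 or in DESeq2. Tdo2, the dioxygenase of the liver, had a value above 0 in TAM-KO replicate 1 alone, at 0.04 FPKM. These genes were named after their values were seen.

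TAM-WT replicate 2 was the lowest TAM-WT library for 6 of the 9 genes other than Ido1 and the highest for 0 of them.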
